A study of Rattus norvegicus with 12 samples.

Results

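Cell-to-cell adhesion genes were followed in RNA-Seq of PAC1, a smooth muscle line from rat pulmonary artery. The set holds 10 genes chosen by name from the 33294 rows of the count table, 6 classical or related cadherins (Cdh1, Cdh2, Cdh3, Cdh6, Cdh11 and Cdh13) and 4 connexins of the vessel wall (Gja1, Gja4, Gja5 and Gjc1). The 12 poly(A) libraries fall into 4 groups of 3. D1 is the differentiated culture (PAC1-D) with control siRNA, and P is the proliferative culture (PAC1-P), which was diluted further and split more often, also with control siRNA. RBPMS KD1 is PAC1-D with siRNA against Rbpms, and MBNL KD is PAC1-D with siRNAs against both Mbnl1 and Mbnl2. All 4 groups received 90 pmol of siRNA with Lipofectamine RNAiMAX in a pair of transfections. The sample labels place the second transfection at 24 h and the harvest 48 h after it, whereas the study's methods give longer intervals. All groups come from 1 cell line, so the values describe PAC1 and not smooth muscle of other origin.

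Cadherins are calcium-dependent adhesion molecules that bind their like on the neighbouring cell. The tails of classical cadherins hold beta-catenin or plakoglobin and p120-catenin, and alpha-catenin links the complex to actin. Cdh13 (T-cadherin) has no such tail and is anchored by a lipid. Connexins assemble into channels that pair across adjacent membranes as gap junctions, through which ions and small molecules pass between cells of the vessel wall. Gja1 encodes Cx43, Gja4 encodes Cx37, Gja5 encodes Cx40 and Gjc1 encodes Cx45.

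Promoter sequence was available for 4 of the 10 genes (Cdh6, Gja1, Gja4 and Gja5), as RefSeq windows of the GRCr8 assembly that run from 250 bases before to 50 bases after the transcription start. The windows of Gja5 and Gja4 are shown up to the start because these 2 genes differed most between the knockdowns, and 30 bases around the one AP-1 match are shown for Gja1, which had the largest log2 fold change between P and D1 among the connexins counted well above the floor. All are written 5′ to 3′ on the strand of the gene. Capitals mark GGGCGG (a GC box) in Gja5 and Gja4 and TGANTCA (AP-1) in Gja1.
Gja5, chr2:187290977-187291226, plus strand: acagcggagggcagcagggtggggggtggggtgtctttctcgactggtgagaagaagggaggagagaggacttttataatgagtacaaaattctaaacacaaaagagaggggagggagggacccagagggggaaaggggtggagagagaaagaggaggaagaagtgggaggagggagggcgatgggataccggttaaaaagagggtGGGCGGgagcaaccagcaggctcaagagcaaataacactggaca
Gja4, chr5:144920325-144920574, minus strand: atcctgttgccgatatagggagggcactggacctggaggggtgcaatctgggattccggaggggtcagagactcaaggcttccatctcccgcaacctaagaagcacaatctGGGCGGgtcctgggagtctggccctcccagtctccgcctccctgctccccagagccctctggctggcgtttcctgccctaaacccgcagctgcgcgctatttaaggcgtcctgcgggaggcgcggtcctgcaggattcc
Gja1, chr20:36302495-36302524, plus strand: ctccttccagtTGAGTCAgtggcttgaaac

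Both strands of the 4 windows were searched. TGANTCA was found in Gja1 alone of the 4, at position -58 from the start, and 7.33% of the 33469 promoter windows in the RefSeq table hold it. CACCTG, an E-box read by SNAI and ZEB repressors, GGAATG, a TEAD motif, and the CArG box of SRF were in none of the 4, and 18.8%, 14.2% and 1.64% of all windows hold them. GGGCGG, added to the search after the windows had been read, lies at -44 and 37 in Gja5, at -139 in Gja4 and at -129 and -125 in Cdh6, and 33.1% of all windows hold it. A match describes letters only and shows no binding.

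Total counts ranged from 80842635 to 90771289 per library, and between 19659 and 20904 genes had a count. Values below are scaled counts, that is counts divided by TMM size factors and put on the scale of an average library. They are not divided by transcript length, since lengths for the files' build were not used, so levels are compared between groups of one gene and not between genes. A floor of 3 counts, which stands for 2.83 to 3.28 scaled counts, marks what cannot be told from 0, and it covers counting error only. The siRNA targets were lower in the groups named for them, with Rbpms 3.99-fold lower in RBPMS KD1, and Mbnl1 and Mbnl2 at log2 fold changes of -2.07 and -1.75 in MBNL KD. Summed over 8 smooth muscle markers, D1 held 870347 to 914855 scaled counts, MBNL KD 694962 to 705331, RBPMS KD1 433760 to 449217 and P 18715.5 to 19888.3. Most of the D1 sum was Acta2, at 446867 ± 17458, and Tagln, at 287969 ± 3510 (SD, n = 3 each). By edgeR at an adjusted p under 0.05, all 8 markers were lower than in D1 in P and RBPMS KD1. In MBNL KD 6 were lower and 2 higher, Myh11 (6616 ± 317 against 4563 ± 283) and Cnn1 (1844 ± 42.9 against 1701 ± 37.3). The labels do not state that replicates were separate cultures, although the methods describe independent biological replicates, so p-values measure the spread between these libraries. In bulk RNA, fewer cells that express a gene and less RNA per cell cannot be told apart.

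Cdh1 (E-cadherin) and Cdh6 (K-cadherin) were at or near 0 in most libraries and did not pass the filter on low counts, which left 8 of the 10 genes to test. The 3 P libraries had 10, 12 and 8 counts of Cdh1, whereas no D1 or RBPMS KD1 library had a count and 1 MBNL KD library had 1. Cdh1 was thus low but present in every P library, and the P mean was at least 3.33-fold higher than the floor of 3 counts per library that bounds D1. Cdh6 had 4 counts in P replicate 1 and 0 in the other 11 libraries.

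**Figure D1:**
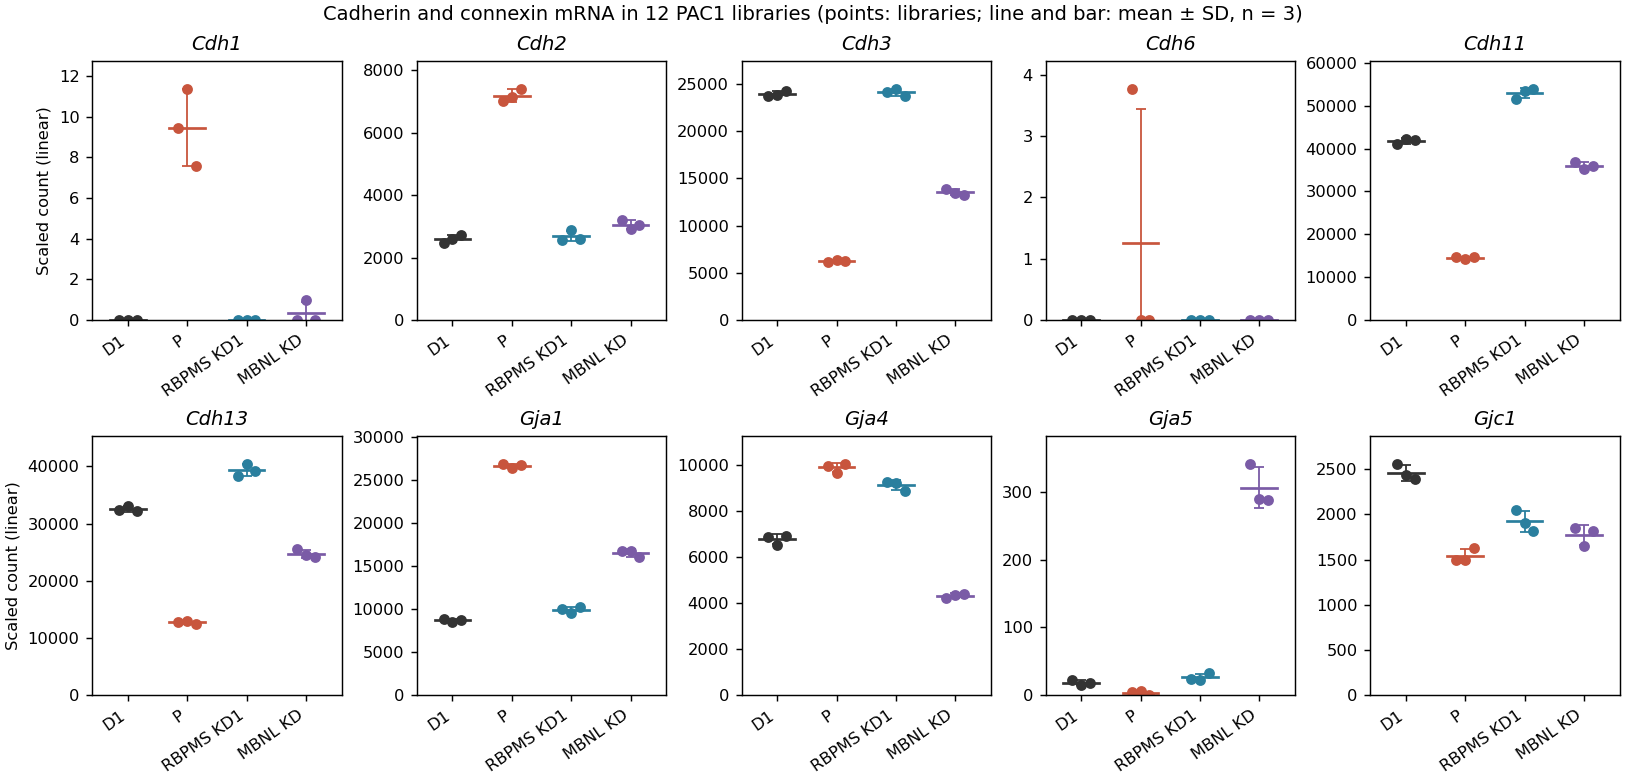
Scaled counts of the 10 genes (linear vertical axes from 0, 1 panel per gene) in the 4 groups on the horizontal axis. Points are libraries and lines with bars the mean ± SD (n = 3). Gja5 stands at 287.9 to 341.3 in MBNL KD and at or under 32.1 in the other 9 libraries, and Cdh3, Cdh11 and Cdh13 are lowest in P.

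The comparison of P with D1 asks how adhesion genes differ between the proliferative and the differentiated culture. In P, the mRNAs of Cdh2 (N-cadherin) and Gja1 were about 3 times their D1 level, while Cdh3 (P-cadherin), Cdh11 (OB-cadherin) and Cdh13 were 2.57-fold to 3.86-fold lower. Gja5 was lower too, but with 0 to 6 counts in the P libraries the size of its change is uncertain. Of the 8 tested genes, 6 were past both thresholds used throughout, namely an absolute log2 fold change above 1 and, by edgeR's quasi-likelihood test, a Benjamini-Hochberg adjusted p below 0.05, with 2 higher and 4 lower in P. Over all genes tested, 27.6% were past both thresholds in this comparison, 16.4% higher and 11.2% lower. All 8 had an adjusted p below 0.05, 3 higher and 5 lower, where 77.9% of all genes did (40.4% higher and 37.6% lower). The median log2 fold change was -1.02 over the 8 genes and 0.02 over all genes.

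Cdh2, the cadherin most studied in smooth muscle, had 2481, 2604 and 2705 scaled counts in the D1 libraries and 7005, 7143 and 7403 in the P libraries. Every P library lay above every D1 library, and the counts were 2.76-fold higher in P (log2 fold change 1.46, standard error (SE) 0.035, adjusted p = 1.18e-27 in edgeR's quasi-likelihood test). Cdh3, best known from epithelia and placenta, had 23769, 23876 and 24282 scaled counts in D1 and 6147, 6331 and 6230 in P. The P libraries lay close together and far below D1, 3.86-fold lower (log2 fold change -1.95, SE 0.026, adjusted p = 5.49e-35). Cdh11, a cadherin of mesenchymal cells, had 40978, 42323 and 42098 scaled counts in D1 against 14609, 14174 and 14631 in P. Its counts were 2.90-fold lower in P, with no overlap between the groups (log2 fold change -1.54, SE 0.025). Cdh13 had 32306, 33143 and 32278 scaled counts in D1 and 12752, 12922 and 12463 in P. It stood 2.57-fold lower in P, again without overlap (log2 fold change -1.36, SE 0.025). Cdh2 was thus the only 1 of the 4 tested cadherins with a higher count in P.

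Among the connexins, Gja1 had 8794, 8490 and 8725 scaled counts in D1 and 26827, 26384 and 26689 in P. The groups were far apart, with Gja1 3.06-fold higher in P (log2 fold change 1.61, SE 0.025, adjusted p = 5.36e-33 in the same edgeR test). Gja4 had 6890, 6532 and 6898 scaled counts in D1 and 9978, 9666 and 10050 in P. All P libraries were higher, by 1.46-fold, which passed the test but not the fold threshold (log2 fold change 0.54, adjusted p = 7.06e-18). Gjc1, the connexin expressed early in the heart and in smooth muscle, had 2559, 2438 and 2389 scaled counts in D1 and 1490, 1497 and 1624 in P. It was 1.61-fold lower in P, likewise short of the fold threshold (log2 fold change -0.68, SE 0.047). Gja5, known from arterial endothelium and the cardiac conduction system, had 22, 14 and 18 counts in D1 and 4, 6 and 0 in P. These counts lie near the floor, and the log2 fold change of -2.50 (SE 0.58, adjusted p = 0.000264 in edgeR's test) ranged from -3.74 to -0.57 over the alternative settings. The value of -0.57 came from limma on the deposited normalised values, where Gja5 no longer passed the fold threshold. On that scale, whose smallest value is 35, Gja5 stood at 35 to 40.3 in P and 51.9 to 61.25 in D1. Fold changes of low counts are compressed there, so this setting cannot decide the size of the change.

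**Figure D2:**
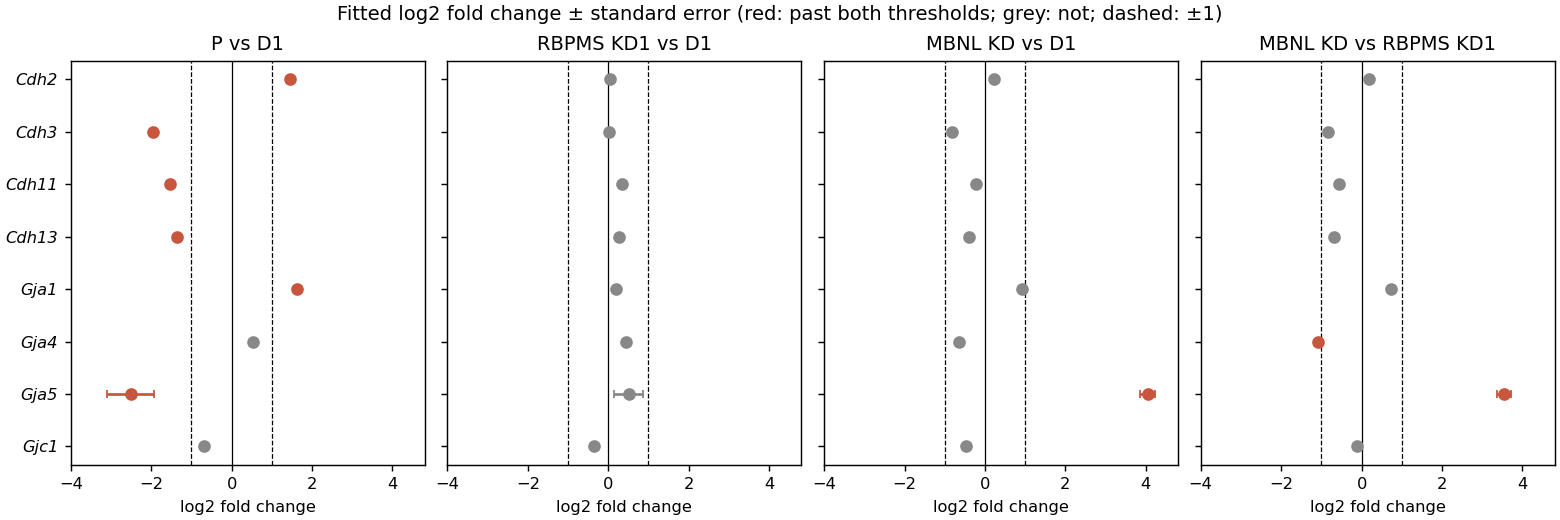
Fitted log2 fold change (horizontal axis) with its standard error for the 8 tested genes (rows) in 4 comparisons (panels). Red points are past both thresholds, grey points are not, and dashed lines mark -1 and 1. In RBPMS KD1 against D1 0 points are red, and in MBNL KD against D1 the 1 red point is Gja5 at 4.05.

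RBPMS KD1 against D1 asks how differentiated cells with siRNA against Rbpms differ from those with control siRNA. Here Cdh11, Cdh13, Gja1 and Gja4 were modestly higher, by 1.14-fold to 1.35-fold, and Gjc1 was lower, while Cdh2, Cdh3 and Gja5 did not pass the test. In this comparison 0 of the 8 genes were past both thresholds in edgeR's quasi-likelihood test, where 4.68% of all genes were (3.06% higher and 1.62% lower). By DESeq2 on the counts, by limma and in each of the other alternatives the number was also 0. With no fold threshold, 5 of the 8 had an unadjusted p below 0.05. At an adjusted p under 0.05 without a fold threshold 5 genes passed, 4 higher and 1 lower, and 59.1% of all genes did (29.5% in each direction). The median log2 fold change of the 8 was 0.23, against 0.004 over all genes.

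The cadherin with the highest log2 fold change was Cdh11, with 51679, 53335 and 53950 scaled counts in the RBPMS KD1 libraries. All of these exceeded the highest D1 library, at 42323 (log2 fold change 0.34, SE 0.025, adjusted p = 1.27e-12 by edgeR). Cdh13 had 38349, 40453 and 39170 scaled counts, also above every D1 library (log2 fold change 0.27, SE 0.025, adjusted p = 2.40e-10). In contrast, Cdh2 had 2568, 2878 and 2605 scaled counts in RBPMS KD1, with 1 library above the D1 range. Its log2 fold change of 0.05 (SE 0.045) did not pass the test (adjusted p = 0.371 by edgeR), and it stayed between -0.003 and 0.08 over the alternatives. Cdh3 had 24134, 24483 and 23740 scaled counts, which overlapped D1 as well, with a log2 fold change of 0.01 (SE 0.025, adjusted p = 0.749 by edgeR).

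Gja4 had 9283, 9198 and 8873 scaled counts in RBPMS KD1, all above the D1 libraries (log2 fold change 0.43, SE 0.030, adjusted p = 5.99e-13 by edgeR). Gja1 had 9938, 9479 and 10190, again without overlap, at a log2 fold change of 0.19 (SE 0.029). Gjc1 had 2049, 1908 and 1820 scaled counts and lay under every D1 library (log2 fold change -0.35, SE 0.047). For Gja5 the counts were 24, 22 and 32 in RBPMS KD1, with 1 library inside the D1 range of 14 to 22. The difference did not pass the test (log2 fold change 0.51, SE 0.37, adjusted p = 0.244 by edgeR).

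MBNL KD against D1 asks the same of the siRNAs against Mbnl1 and Mbnl2. Gja5 rose 16.5-fold, Gja1 stood 1.90-fold higher just under the fold threshold, and Cdh3 and Gja4 were lower by 1.77-fold and 1.57-fold. Of the 8 genes, 1 was past both thresholds, where 10.2% of all genes were (6.1% higher and 4.14% lower). By edgeR all 8 passed at an adjusted p below 0.05, 3 higher and 5 lower, and 67.5% of all genes did (33.8% higher and 33.7% lower). The median log2 fold change was -0.31 over the 8 genes and 0.01 over all genes.

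Gja5 had 343, 292 and 263 counts in the MBNL KD libraries, or 341.3, 288.8 and 287.9 scaled counts. The lowest of these was more than 10 times the highest D1 library, and the log2 fold change was 4.05 (SE 0.19, adjusted p = 1.12e-17 by edgeR). Over the alternatives it lay between 2.62 and 4.21, and it passed both thresholds in each. The nearest tested genes on either side of Gja5 in the GRCr8 gene order, Gpr89b (with 1 other gene between) and Acp6, had log2 fold changes of 0.02 and -0.09 in the same comparison. Gja1 had 16738, 16704 and 16014 scaled counts in MBNL KD, far from the D1 libraries. Its log2 fold change of 0.93 (SE 0.024, adjusted p = 4.27e-24 by edgeR) lay between 0.91 and 1.00 over the alternatives and never passed the fold threshold.

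Gja4 moved the other way, with 4201, 4354 and 4390 scaled counts in MBNL KD, all under the lowest D1 library. Its log2 fold change was -0.65 (SE 0.031, adjusted p = 1.78e-17 by edgeR). Gjc1, with 1854, 1645 and 1817 scaled counts, was lower as well (log2 fold change -0.47, SE 0.048). Within the connexins, then, 2 genes had higher and 2 had lower counts in MBNL KD.

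Cdh3 had 13910, 13448 and 13232 scaled counts in MBNL KD, between the D1 and the P libraries. Its log2 fold change was -0.82 (SE 0.025, adjusted p = 3.73e-22 by edgeR). Cdh13 had 25491, 24430 and 24160 scaled counts (log2 fold change -0.40) and Cdh11 had 36981, 35228 and 35894 (log2 fold change -0.21), both lower than in D1 without overlap. Cdh2 had 3196, 2926 and 3034 scaled counts, each above the highest D1 library, with a log2 fold change of 0.23 (SE 0.042, adjusted p = 1.27e-05 by edgeR). Summed over 4 proliferation markers, the scaled counts were 33140.4 to 33306.4 in MBNL KD, 42943.1 to 44918.7 in RBPMS KD1, 53954.1 to 55455.5 in D1 and 64673.2 to 66867.7 in P. All 4 markers were lower at an adjusted p under 0.05 by edgeR in both knockdowns, and in P 2 were higher and the other 2 did not pass. Marker mRNA is not a measure of proliferation. By EdU incorporation, the paper reports more proliferation after RBPMS knockdown and no effect of MBNL depletion. The part of these markers in the values of the adhesion genes was not tested.

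**Figure D3:**
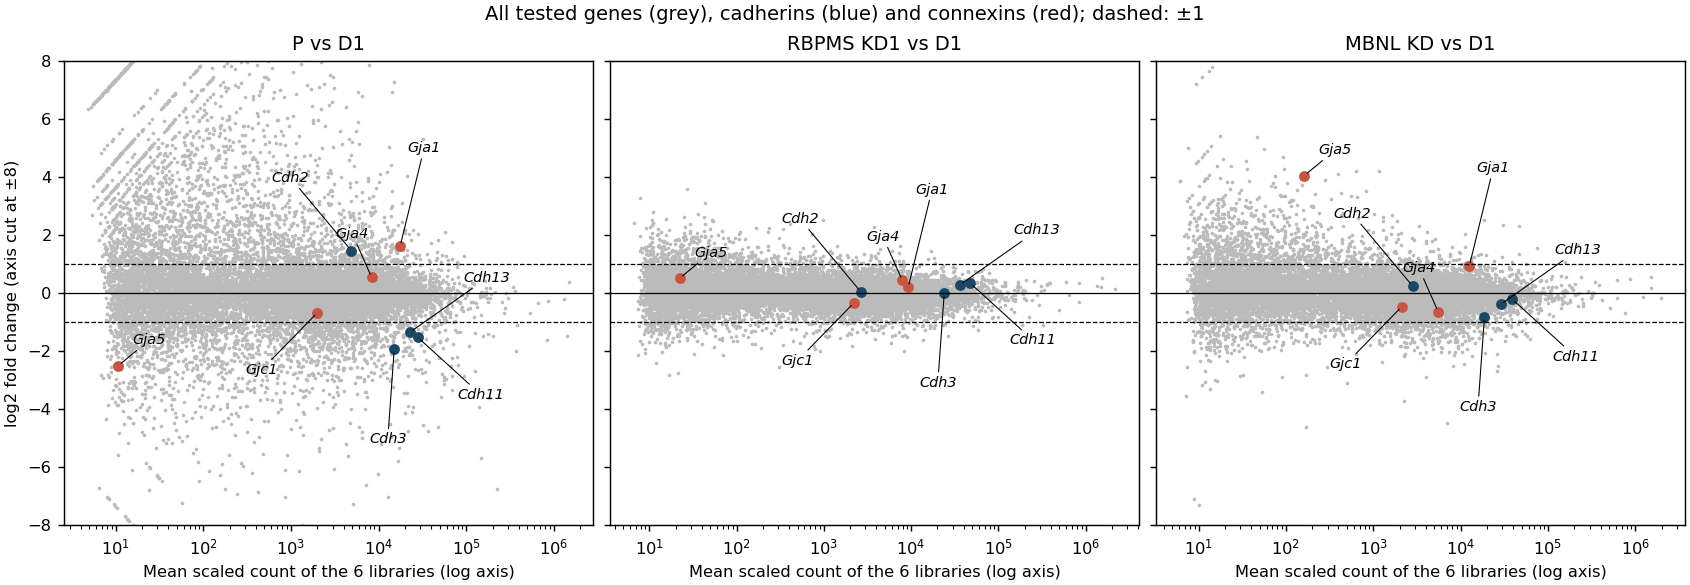
Log2 fold change (vertical axis, cut at 8 in either direction) against the mean scaled count of the 6 libraries (log horizontal axis) for all tested genes in grey, with the 8 tested cadherins (blue) and connexins (red) named. Dashed lines mark -1 and 1. Gja5 lies at 4.05 in MBNL KD at a mean of under 200 scaled counts, whereas the cadherins are among the better counted genes.

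The 2 knockdowns were compared directly, without the D1 libraries that the comparisons above share. Gja5 was 11.6-fold higher in MBNL KD than in RBPMS KD1 (log2 fold change 3.54, SE 0.18, adjusted p = 3.33e-17 by edgeR), with a log2 fold change of 2.47 by limma on the deposited normalised values and 3.42 to 3.69 in the other alternatives. Gja4 was 2.12-fold lower (log2 fold change -1.08, SE 0.030, adjusted p = 1.86e-23 by edgeR). These 2 of the 8 genes were past both thresholds, where 11.9% of all genes were (5.88% higher and 6.03% lower). All 8 passed at an adjusted p below 0.05, 3 higher and 5 lower, against 69.5% of all genes (35.1% higher and 34.5% lower), with a median log2 fold change of -0.34 over the 8 and 0.01 over all genes.

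Gja4 separated the knockdowns most clearly among the well counted genes. The RBPMS KD1 libraries held 8873 to 9283 scaled counts, the D1 libraries 6532 to 6898 and the MBNL KD libraries 4201 to 4390, so the 3 groups did not overlap in either direction from D1. Cdh11 and Cdh13 showed the same order, with log2 fold changes of -0.56 and -0.68 between MBNL KD and RBPMS KD1 (SEs 0.027 and 0.028). Cdh3 was lower in MBNL KD (log2 fold change -0.84) and Gja1 higher (0.74). Cdh2 differed little (0.18, adjusted p = 0.000685 by edgeR). Gjc1 passed at an adjusted p of 0.0391 with a log2 fold change of -0.13, but its RBPMS KD1 and MBNL KD libraries overlapped (two-sided exact permutation test, p = 0.2).

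By mean level, Cdh2 ran from P through MBNL KD and RBPMS KD1 to D1, and RBPMS KD1 and D1 did not differ beyond their spread (two-sided exact permutation test, p = 0.6). Cdh3 ran from RBPMS KD1 and D1, which overlapped (p = 0.7 in the same exact test), to MBNL KD and P. Cdh11 and Cdh13 were both highest in RBPMS KD1, followed by D1, MBNL KD and P, with no neighbours that overlapped. The sum over 6 fibroblast markers, most of it Col1a1 and Col3a1, had this order too, but among the 6 genes only Col3a1 did by its own means. The summed values were 3927590 to 4230110 scaled counts in RBPMS KD1, 3291730 to 3425160 in D1, 2974380 to 3024660 in MBNL KD and 2352840 to 2539430 in P. In P against D1, Col3a1 (log2 fold change -1.47) and Pdgfra (-0.29) were lower, Dcn (0.73), Col1a1 (0.36) and Lum (0.32) were higher, all at an adjusted p under 0.05 by edgeR, and Thy1 (0.34) did not pass. The part of these markers in the cadherin values was not tested. Gja1 was highest in P, then MBNL KD, RBPMS KD1 and D1, and Gja4 was highest in P, then RBPMS KD1, D1 and MBNL KD, again without overlap. Gja5 was highest in MBNL KD, with RBPMS KD1 and D1 overlapping (exact permutation test, p = 0.2) above P. For Gjc1 the order was D1, RBPMS KD1, MBNL KD and P, and the 2 knockdowns overlapped (exact permutation test, p = 0.2). With 3 libraries against 3, groups that do not overlap give p = 0.1, the smallest this exact test allows. In the 3 comparisons with D1, 79.1%, 63.4% and 70.3% of all tested genes did not overlap for P, RBPMS KD1 and MBNL KD, and 71.8% did not between the knockdowns.

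The make-up of each family shifted with these changes. Summed over the 6 cadherins, D1 had 100947 ± 1259 scaled counts, P had 40614.6 ± 108, RBPMS KD1 had 119114 ± 2230 and MBNL KD had 77309.9 ± 1970 (SD, n = 3 each). Summed over the 4 connexins, D1 had 17923.2 ± 407, P had 38071.8 ± 450, RBPMS KD1 had 20939.1 ± 344 and MBNL KD had 22878.3 ± 328 (SD, n = 3 each). The cadherin total was thus lowest and the connexin total highest in P. As a share of cadherin counts, Cdh2 took 2.57% ± 0.090 in D1 and 17.7% ± 0.45 in P, and 2.25% and 3.95% in RBPMS KD1 and MBNL KD. Cdh3 took 23.8% ± 0.29 in D1 and 15.4% ± 0.22 in P. Cdh13 kept a share of 31.3% to 33.0% in the means of all 4 groups. As a share of connexin counts, Gja1 took 48.4% ± 0.22 in D1, 47.1% ± 1.42 in RBPMS KD1, 70.0% ± 0.35 in P and 72.0% ± 0.80 in MBNL KD. Gja4 took 37.8% ± 0.44, 43.6% ± 1.11, 26.0% ± 0.23 and 18.9% ± 0.68 in the same order. Gja5 took 0.102% in D1 against 1.34% ± 0.12 in MBNL KD, and its 16.5-fold rise left it a small part of connexin counts. Shares of counts are weighted by transcript length and are no shares of molecules.

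**Figure D4:**
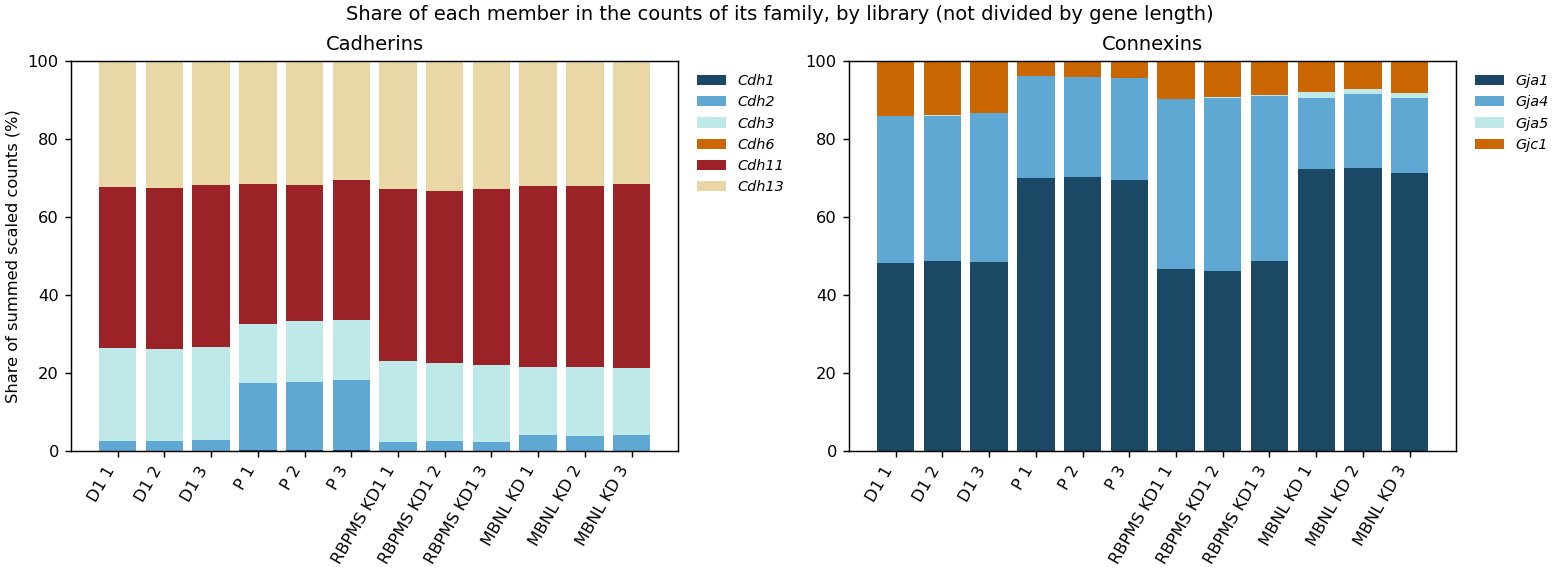
Stacked bars of each gene's share of the summed scaled counts of its family (vertical axis, percent, from 0 to 100) in each of the 12 libraries, cadherins on the left and connexins on the right, not divided by gene length. Gja1 fills about 70% of the bar in the P and MBNL KD libraries and under 50% in D1 and RBPMS KD1, and the Cdh2 segment is tallest in P.

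The proteins that tie cadherins to actin were looked at as a list of 16 catenins and partners, of which 13 were tested in each comparison with D1. In P, 1 was past both thresholds and higher and 3 were lower. In RBPMS KD1, 0 were past both thresholds in edgeR's test (11 of 13 had an unadjusted p below 0.05, DESeq2 and limma called 0 and 1 fit of all 12 libraries called 1), and in MBNL KD 1 was, higher. Jup, which encodes plakoglobin, had 28821 ± 375 scaled counts in D1 and 5260 ± 160 in P, a log2 fold change of -2.46 (SE 0.028). Vcl, which encodes the actin-binding vinculin, had a log2 fold change of -1.82 in P, and Ctnna3, an alpha-catenin of muscle, one of -3.61. Afdn, which encodes afadin, a partner of nectins, had 1926.28 ± 14.9 scaled counts in D1 and 15038.2 ± 327 in P, a log2 fold change of 2.96 (SE 0.031). The central catenins differed far less, with log2 fold changes in P of 0.45 for Ctnnb1 (beta-catenin), 0.20 for Ctnnd1 (p120-catenin) and 0.16 for Ctnna1 (alpha-catenin). In MBNL KD the same 3 genes were lower, at -0.34, -0.59 and -0.32, as were Jup at -0.60 and Afdn at -0.91, all short of the fold threshold. Ctnna3 was the 1 gene of the list past both thresholds in MBNL KD, at 1.37 (SE 0.071, adjusted p = 1.29e-16 by edgeR), opposite in sign to its value in P. Leaving out MBNL KD replicate 3 or any 1 D1 library raised that count to 2.

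Among 17 further cadherins, 8 were tested in P and 6 in each knockdown, and those past both thresholds were 2 higher and 2 lower in P, 2 higher in RBPMS KD1 and 2 higher in MBNL KD. Cdh15 (M-cadherin, of skeletal muscle) was higher in P (log2 fold change 2.26) and in MBNL KD (1.64), Cdh17 was higher in RBPMS KD1 (1.80) and MBNL KD (2.15), and Cdh16 was lower in P (-2.73) and higher in RBPMS KD1 (1.24). Cdh8 was lower in P (-2.40). Some of these fold changes rest on low counts. Cdh17 had 24 to 43 counts in D1 and 82 to 163 in RBPMS KD1, and Cdh15 had 28 to 45 in D1. In P, Cdh16 had 6 to 20 counts and Cdh8 had 12 to 15. Cdh5, the cadherin of endothelium, had 122 to 138 counts in the P libraries and 0 in the other 9, at least 42.9-fold over the floor of 3 counts per library. The 7 endothelial markers, Cdh5 included, summed to 157 to 164 scaled counts in D1 and 1314 to 1370 in P, 248 to 261 in RBPMS KD1 and 258 to 308 in MBNL KD. Of the other 6, Tek, Erg and Vwf were tested in P, and all 3 were past both thresholds and higher (by 13.1-fold, 8.83-fold and 2.46-fold), with Erg the largest part of the sum. In RBPMS KD1, 2 of the same 3 were past both thresholds and higher, Tek with 59.8 ± 2.71 scaled counts against 23.9 ± 0.52 in D1 and Vwf with 94.7 ± 1.74 against 40.6 ± 2.63 (SD, n = 3 each), while Erg did not pass the test (log2 fold change 0.03). In MBNL KD 0 of the 3 were past both thresholds by edgeR. Only Erg was higher at an adjusted p under 0.05 there, with 174 ± 6.49 scaled counts against 90.4 ± 5.56 in D1. Pecam1, a defining marker, had 4.09 ± 2.03 scaled counts in D1 and 5.05 ± 3.83 in P (SD, n = 3 each), and Kdr had at most 4 counts in a P library. The part of these markers in the connexin and cadherin values was not tested. The 9 epithelial markers summed to 3363 to 3506 scaled counts in D1 and 7737 to 8107 in P, beside the Cdh1 counts. Nearly all of this was Krt8, with 3218 ± 79.1 in D1 and 7250 ± 142 in P, and most of the rest was Esrp2, with 198 ± 7.97 and 655 ± 53.2 (SD, n = 3 each). Epcam had 0 counts in D1 and a mean of 6.94 ± 1.11 scaled counts in P, and Krt19, Cldn4, Cldn7 and Esrp1 were at 3 counts or fewer in every D1 and P library. The 9 markers summed to 3714 to 3979 in RBPMS KD1 and 4879 to 4975 in MBNL KD. Of 4 leukocyte markers, 3 were tested in P and 2 in each knockdown. Past both thresholds and higher were Cd3e in P (16 to 22 counts, 2 to 8 in D1) and Csf1r in MBNL KD (52 to 62, 19 to 26 in D1). The part of the epithelial and leukocyte markers in the adhesion values was not tested.

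Of 31 protocadherins, FAT and desmosomal cadherins, 18 were tested in P and 13 in each knockdown. In P, 8 were past both thresholds and higher and 4 lower, in RBPMS KD1 0 were in edgeR's test (7 of 13 had an unadjusted p below 0.05, DESeq2 and limma called 0, quantile normalization gave 1 and the fit without D1 replicate 3 gave 2), and in MBNL KD 1 was higher and 2 were lower. The desmosomal genes Dsc2 and Dsg2 had 0 counts in every D1 library and were at least 41.8-fold and 11.8-fold over the floor of 3 counts per library in P, and Fat2 at least 5.78-fold. Pcdh10 had 4 to 13 counts in the D1 libraries, near the floor, and 2495 to 2607 in the P libraries. The size of its fold change rests on the D1 counts, with a log2 fold change of 8.36 that became 9.15 without D1 replicate 2. Dchs2 had 4 to 6 counts in D1 and 260 to 288 in P. Fat3 had 2 to 12 counts in D1, 18 to 38 in P and 37 to 53 in MBNL KD. Its log2 fold changes of 2.32 in P and 3.12 in MBNL KD became 3.67 and 4.47 without D1 replicate 3. In P, Celsr1 (3.56) and Pcdh19 (2.13) were higher too, and Pcdh1 (-1.72), Pcdh7 (-1.83), Pcdh20 (-2.37) and Celsr3 (-1.36) were lower. In MBNL KD, Celsr2 (-2.11) and Pcdh19 (-1.96) were lower. When genes needed at least 10 counts in every library, the count in P was 6 in place of 12.

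Other connexins and pannexins numbered 19, of which 7 were tested in P and RBPMS KD1 and 8 in MBNL KD. In P 5 were past both thresholds, all higher, among them Panx1 (log2 fold change 1.91), a channel that releases ATP, Gja3 (2.83-fold higher) and Gjb5. The last had 4 to 10 counts in D1 and 19 to 22 in P (log2 fold change 1.39), and did not pass without D1 replicate 2 (1.10, adjusted p = 0.0513 by edgeR). The list gave 1 call after quantile normalization and 1 by limma on the normalised values, and 3 without D1 replicate 2. In RBPMS KD1 0 were in edgeR's test (5 of 7 had an unadjusted p below 0.05, DESeq2 and limma called 0, 2 were called after quantile normalization and 1 without D1 replicate 1 or 2 or RBPMS KD1 replicate 1 or 3), and in MBNL KD 1 was, Gjd4. It had 0 to 4 counts in the D1 libraries and 12 to 14 in the MBNL KD libraries, close to the floor, and no such call with counts halved.

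Of the 6 connexin partners, all were tested. Tjp1, which encodes ZO-1, a scaffold that binds the tail of Cx43, had a log2 fold change of 0.94 in P. Tjp3 was past both thresholds and higher in P (3.04) and lower in MBNL KD (-1.09, or -0.91 without MBNL KD replicate 3), Dbn1 (drebrin) was lower in P (-1.33), and Ccn3, a secreted matricellular protein known to bind Cx43, was lower in P, where it had 3764.53 ± 194 scaled counts against 91593 ± 2474 in D1 (log2 fold change -4.61, SE 0.033). In MBNL KD, Ccn3 was higher by 0.47. In all, 1 of the 6 was higher and 2 were lower past both thresholds in P, 0 were in RBPMS KD1 by edgeR (3 of 6 had an unadjusted p below 0.05, and DESeq2 and limma called 0) and 1 was lower in MBNL KD, which gave no call without MBNL KD replicate 3.

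**Figure D5:**
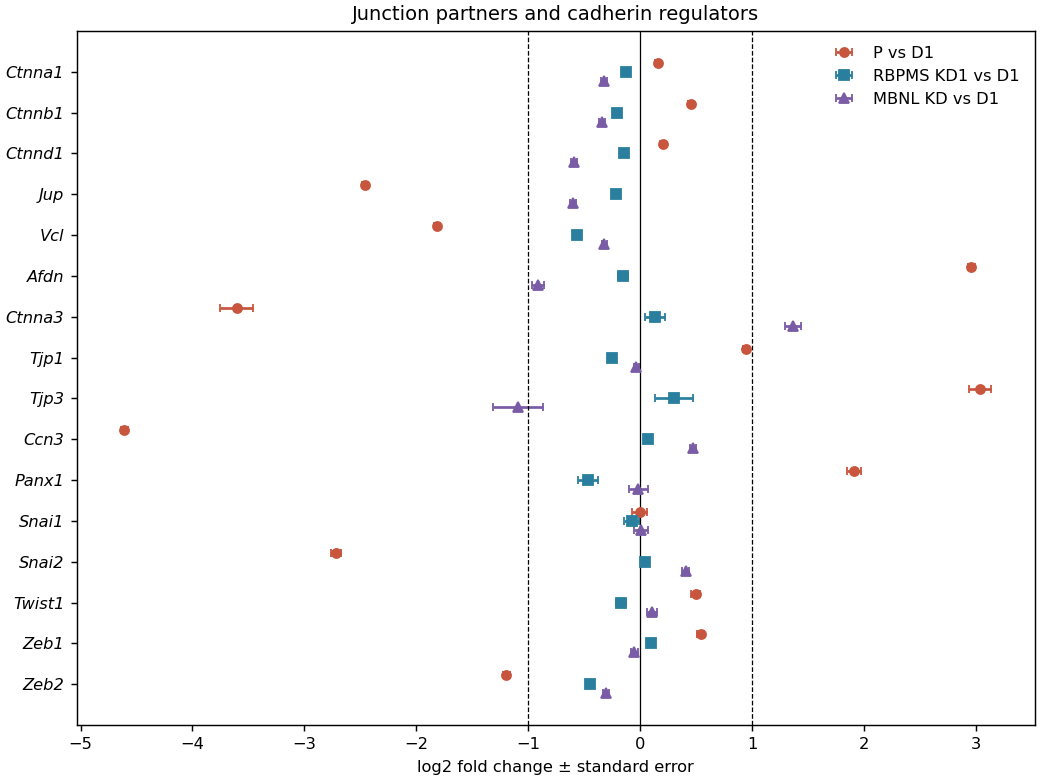
Log2 fold changes of genes around the cadherins and connexins (rows) in the comparisons of P, RBPMS KD1 and MBNL KD with D1, with standard errors as bars. Afdn at 2.96, Jup at -2.46 and Ccn3 at -4.61 in P lie far from 0, and the central catenins lie within 0.6 of 0 in all 3 comparisons.

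The transcription factors that act on cadherin genes numbered 12, of which 10 were tested. In P 3 were past both thresholds and lower: Snai2 (Slug), with 4109 ± 33.0 scaled counts in D1 and 627 ± 35.6 in P (log2 fold change -2.72), Zeb2 (-1.19) and Grhl2 (-1.36), an epithelial activator. Snai1 had a log2 fold change of -0.01, Twist1 of 0.50 and Zeb1 of 0.54. Snai3, with 2 to 24 counts in D1 and 42 to 77 in RBPMS KD1, was past both thresholds there (1.83), a call that was absent with DESeq2, with limma and with at least 10 counts in every library. In MBNL KD 0 were past both thresholds by edgeR (6 of 10 had an unadjusted p below 0.05, and DESeq2 and limma called 0), with Snai2 at 0.41 and Grhl2 at 0.59.

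By Pearson correlation of log2(CPM + 1) over the 12 libraries, the patterns most like each gene were read as a description, with the 12 points sharing 4 groups and no p given. This was done for the 7 genes past both thresholds in a comparison and with a mean of at least 100 scaled counts in their highest group, against genes outside the set that passed the filter on low counts. The most alike gene was Crb2 for Cdh3 (r = 0.9994), Sema3d for Cdh13 (0.999), Fchsd2 for Cdh11 (0.9989) and LOC102556043 for Cdh2 (0.9968). For the connexins it was Cdkn2aipnl for Gja4 (0.9975), Igf2bp2 for Gja1 (0.9969) and Mars1 for Gja5 (0.9963). Mbnl3 was the second gene for Gja1 (0.9955). Cdh1 and Cdh3 are next to each other in the GRCr8 gene order, and the former had counts in P, where the latter was lowest.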

How the data were processed

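Counts per gene symbol were deposited by the authors, who subsampled every sample to 55 M reads with seqtk, aligned with STAR 2.7.11b to mRatBN7.2 and counted with featureCounts, without normalization. The deposited normalised signal, made by the authors with noise correction and quantile normalization, holds 19812 of the 33294 genes, has a smallest value of 35 and served only for limma as an alternative. Cdh1 and Cdh6 are not in it. Its lower bound compresses fold changes of genes with low counts, so a call that limma lacks in such a gene says little. Totals above the stated read number, and 68.7% even values among counts of 1 to 20, raise the question whether both mates of a pair were counted, and halved counts were an alternative. Strand and mate settings are not given in the sources used here.

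Each comparison was fitted on its 6 libraries in R 4.3.3 with edgeR 4.0.16 (filterByExpr, TMM, quasi-likelihood F test, Benjamini-Hochberg over all genes tested), and standard errors are the log2 fold change over the square root of F. Scaled counts use TMM factors over 12 libraries. DESeq2 1.42.0 and limma 3.58.1 gave alternatives, along with DESeq2 size factors, quantile normalization, filter settings, 1 fit of 12 libraries, a replicate block and leaving out each library. The procedure was tested on simulated data. Replicate numbers were checked for pairing, and libraries of a group correlated at r of 0.99901 or more with 0 identical pairs.

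The members, lists and thresholds were chosen with earlier results of these data known. Named genes outside the 10 are those past both thresholds in any comparison and a fixed set of core junction genes, of which some are not reported here. Nearest genes and promoters come from RefSeq tables of GRCr8, a build other than that of the files, and give no coordinates for the counts. Protein sequences and a genome were not used here.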

Additional observations from a re-analysis of the deposited data

Results flagged for a closer look

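In 3 of the 8 tested genes, picked for this pattern, the knockdowns moved counts in opposite directions from D1, and the difference itself was tested with edgeR's quasi-likelihood fit of MBNL KD against RBPMS KD1. Of the 15593 genes tested in all 3 comparisons, 17.7% met the same rule, an adjusted p under 0.05 in each comparison with D1 in opposite directions and between the knockdowns. Groups of 3 did not overlap between the knockdowns in 71.8% of all genes tested. Gja4 had a log2 fold change of 0.43 in RBPMS KD1 and -0.65 in MBNL KD against D1, and -1.08 between them (adjusted p = 1.86e-23, 3 of 3 MBNL KD libraries under every RBPMS KD1 library). Cdh13 had 0.27 and -0.40 against D1, and -0.68 between the knockdowns (adjusted p = 2.96e-19, again 3 of 3 libraries). Cdh11 had 0.34 and -0.21 against D1, and -0.56 between them (adjusted p = 1.15e-17, 3 of 3 libraries). The 2 comparisons with D1 share the D1 libraries, and the direct comparison does not use them.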

How the results depend on the processing

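Across up to 16 alternatives for each fold change, 507 of 510 values kept their direction and their class, past both thresholds together or not. Gja5 in P against D1 kept its direction but fell short of the fold threshold with limma on the normalised values (log2 fold change -0.57). The lower bound of 35 in those values compresses low counts. The other 2 were Cdh2 and Cdh3 in RBPMS KD1 against D1, neither past the test, which lay just under 0 without RBPMS KD1 replicate 2 (-0.0034 and -0.00012). Leaving out each library gave ranges of -0.0034 to 0.080 and -0.00012 to 0.022. Of the 128 recomputed counts of called genes, all 128 stayed within 1.5 times the reported value. The number past both thresholds ran from 5 to 7 in P, was 0 in RBPMS KD1, 1 in MBNL KD and 2 between the knockdowns in every setting. The number at an adjusted p under 0.05 ran from 7 to 9, from 5 to 6, from 8 to 8 and from 7 to 8. Gjc1 between the knockdowns, never past both thresholds, did not keep an adjusted p under 0.05 in every alternative (largest 0.362). In P, Gja5 was lost to the filter of at least 10 counts per library and to halved counts. In the other adhesion lists 348 of 384 counts stayed within 1.5 times and 36 moved. Same-numbered libraries of different groups deviated together with correlations of only -0.018 to 0.0585, so no shared effect of the replicate number was seen. These correlations do not show whether such libraries were handled in parallel. Adding the replicate numbers to the fit (the replicate block) gave 6, 0, 1 and 2 members past both thresholds and 8, 5, 8 and 8 at an adjusted p under 0.05. Depth limits Cdh1, Cdh6 and Gja5 outside MBNL KD, with under 40 counts in a library.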
